A study of Mus musculus with 32 samples.

Results

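The interferon-gamma inducible GTPases described here are 10 genes of the 16741 in the RNA table, matched by symbol and chosen as a set: the guanylate-binding proteins (GBP) Gbp2, Gbp3, Gbp7, Gbp4, Gbp6 and Gbp9, and the immunity-related GTPases (IRG) Irgm1, Irgm2, Igtp and Iigp1. All 10 were in the table and passed the filter on low values. The 31 RNA libraries hold donor T cells of C57Bl6 mice, sorted from spleen and lymph nodes before transplantation (day 0) or after it, in a major mismatch model of graft-versus-host disease (GVHD) with Balb/c hosts. Cells labelled CD4+ or CD8+ came from day 0 (2 libraries each), from the syngeneic untreated control (3 each), from GVHD hosts left untreated, called allogeneic (4 each), and from GVHD hosts given regulatory T cells (Treg) on day 0, called Treg-treated (4 each). Treg came from day 0 (2 libraries) and from Treg-treated hosts (3 libraries, called Treg day 6). The titles give day 6 for all later samples, whereas the design text gives day 8. Age, sex, the hosts of the syngeneic arm and the number of mice per library are not given in the sources used here, so that p-values measure the spread between libraries. Whether the Treg recovered late are those infused was not given either.

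GBPs and IRGs are GTPases that cells make when interferon-gamma binds its receptor, through JAK kinases and IRF1, and several also respond to type I interferon. They gather on the vacuoles of intracellular bacteria and parasites. GBPs oligomerise there and help to break the membrane or to trigger inflammasomes. Among the IRGs, Iigp1 is an effector that attacks the vacuole, whereas Irgm1, Irgm2 and Igtp are regulators that sit on the cell's own membranes and keep effectors inactive. In T cells their RNA is commonly read as a trace of interferon signalling, and Irgm1 is known to affect the survival of activated CD4 cells.

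Gbp7, Gbp3 and Gbp2 lie close together on chromosome 3 (chr3:142530336-142550151, chr3:142560016-142573213 and chr3:142620663-142638008 in GRCm38.p6, per RefSeq). Gbp9, Gbp4 and Gbp6 lie on chromosome 5 (chr5:105076464-105110357, chr5:105115767-105139586 and chr5:105270702-105295871). Igtp and Irgm2 are close to each other on chromosome 11 (chr11:58199556-58207592 and chr11:58214977-58222783), and Irgm1 is elsewhere on that chromosome (chr11:48865245-48871420). RefSeq promoter windows, 250 bases before to 50 after a transcription start, were matched for 6 of the 10 members, with 2 starts for Gbp3. The 150 bases before the start are printed for these 6, because all 6 hold the interferon-response letters described next. Capitals mark each match to GAAA, any 2 bases and GAAA again, on either strand, the core of the interferon-stimulated response element (ISRE) that IRF1 binds. Overlapping matches in Gbp3 and Irgm1 run together.
Gbp2, chr3:142620513-142620662, plus strand: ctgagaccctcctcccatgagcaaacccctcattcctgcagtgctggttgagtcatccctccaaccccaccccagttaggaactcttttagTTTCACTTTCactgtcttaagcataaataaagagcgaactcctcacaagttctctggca
Gbp3, chr3:142559894-142560043, plus strand: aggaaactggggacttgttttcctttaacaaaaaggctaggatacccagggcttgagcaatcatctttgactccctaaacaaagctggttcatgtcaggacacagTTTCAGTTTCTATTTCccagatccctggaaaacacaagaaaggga
Gbp7, chr3:142530186-142530335, plus strand: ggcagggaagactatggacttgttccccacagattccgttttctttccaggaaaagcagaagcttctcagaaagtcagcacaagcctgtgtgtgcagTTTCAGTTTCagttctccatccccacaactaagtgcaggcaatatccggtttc
Irgm1, chr11:48871421-48871570, minus strand: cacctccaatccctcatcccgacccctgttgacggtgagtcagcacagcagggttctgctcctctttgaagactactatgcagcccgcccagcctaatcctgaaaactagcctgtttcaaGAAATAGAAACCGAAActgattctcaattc
Irgm2, chr11:58214827-58214976, plus strand: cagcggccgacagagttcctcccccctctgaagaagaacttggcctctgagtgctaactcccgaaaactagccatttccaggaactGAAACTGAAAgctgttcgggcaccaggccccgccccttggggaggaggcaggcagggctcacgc
Igtp, chr11:58199406-58199555, plus strand: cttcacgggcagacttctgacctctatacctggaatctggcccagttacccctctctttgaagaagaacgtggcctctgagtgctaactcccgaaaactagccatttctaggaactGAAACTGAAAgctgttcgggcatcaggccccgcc

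An ISRE core was found in all 6 genes with a window (6 of 7 windows), against 3.44% of 32851 RefSeq windows of the same length. TTCNNNGAA, the letters of the gamma-activated site (GAS), an element known for the interferon-gamma response, was found in 3 of the 6, namely Gbp7, Irgm2 and Igtp, against 8.3% of windows. Gbp7 held a pair of GAS matches. Irgm2 and Igtp shared a run of 38 identical bases, and the longest run shared by any other pair was 13 bases, between Gbp3 and Gbp7. The first Gbp3 start lies inside the RefSeq gene, so that the last 28 bases printed for it are within the gene. These matches describe letters and show no binding.

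**Figure D1:**
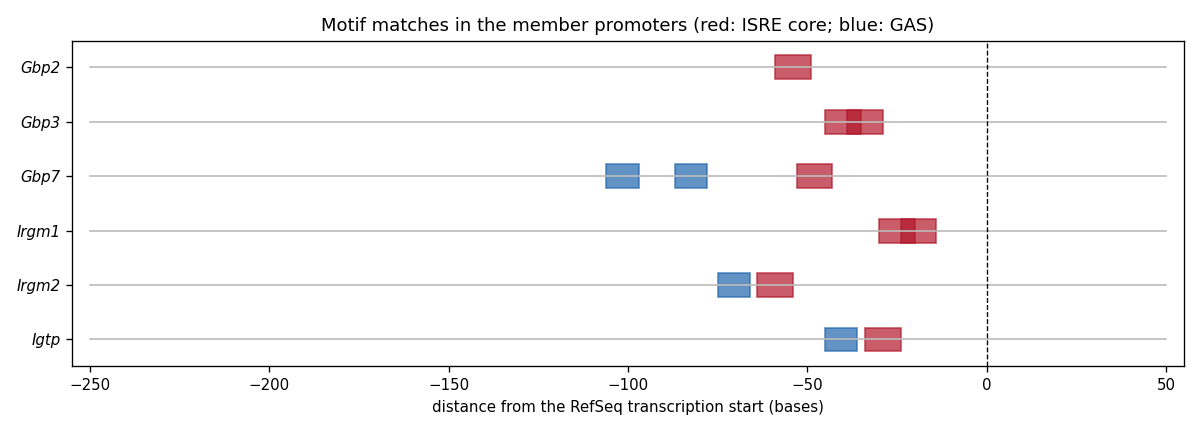
Positions of ISRE core (red) and GAS (blue) matches in the windows from 250 bases before to 50 after the RefSeq start (x axis, bases from the start) of the 6 members with a window, one line per gene, first start for Gbp3. Every match lies within 106 bases before the start.

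Values are the authors' normalised counts: reads per gene scaled between libraries but not by gene length, so levels are compared between libraries and not between genes. The depth in reads is not known. Library means ran from 1227 to 2385 normalised counts per gene. One library stood apart: CD4 syngeneic replicate JL019-2 had Cd4 at 1659 and Cd8a at 1956, against its label, and 12 myeloid markers made up 2.91% of its total, against 0.0158% to 0.118% in the other 30 libraries. CD4 syngeneic means include it, and comparisons where it changed a call or a direction are also given without it. In libraries labelled Treg, Foxp3, the defining transcription factor, was at 198 and 442 (day 0) and 285, 265 and 293 (day 6), below the CD4 day 0 libraries at 1145 and 978, which goes against the label. The difference between Treg and CD4 cells at day 0 did not pass (log2 change -1.84, adjusted p 0.309, limma). CD8 libraries had Foxp3 at 103 to 453 in allogeneic and 109 to 236 in Treg-treated hosts, against 0 to 3.52 in syngeneic hosts. Treg day 6 did not pass as different in Foxp3 from CD8 Treg-treated (log2 change 0.91, adjusted p 0.280) or CD4 Treg-treated cells (0.86, adjusted p 0.330, limma). Ikzf2 and Il2ra, further Treg genes picked after their values were seen, were higher in both Treg groups than in every CD4 library: Ikzf2 averaged 16735 ± 3609 (SD, n = 2) and 13604 ± 1743 (n = 3), against 1695 ± 106 (n = 2) at CD4 day 0. RNA comes from pools of sorted cells, so a change in the share of expressing cells cannot be told apart from a change in RNA per cell. The authors' transcript counting can split reads among near-identical GBP and IRG genes, so the values of single family members are uncertain to that extent.

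The members were highest in Treg recovered from Treg-treated hosts. For each of the 10, the lowest Treg day 6 library was above the highest of the other 28 libraries, as it was for 397 of all 16741 genes (2.37%). Together the 10 genes held 0.506% to 0.585% of the library total in Treg day 6, 0.226% and 0.255% in Treg day 0, and 0.0487% to 0.278% in CD4 and CD8 libraries. CD4 Treg-treated replicate JL027-1 was the library at 0.278%. The levels of each gene are given below as normalised counts, as mean ± SD where a group is summarised (n as above).

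Gbp2, a guanylate-binding protein recruited to pathogen vacuoles, measured 15741, 18423 and 18797 in the Treg day 6 libraries and 4356 and 3327 in those of Treg day 0. CD4 means for Gbp2 were 2193 ± 6.91 at day 0, 2979 ± 1481 in syngeneic, 4081 ± 431 in allogeneic and 4766 ± 2038 in Treg-treated hosts. CD8 means for Gbp2 were 2977 ± 957, 3222 ± 344, 2694 ± 588 and 2088 ± 444 in that order. Both Treg groups lay above CD4 day 0 in all libraries, and no CD8 library reached the CD4 Treg-treated maximum of 7492. In the order of the Gbp2 means, libraries of adjacent groups were fully separated at Treg day 6 above CD4 Treg-treated.

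Gbp3, a guanylate-binding protein of the same gene cluster, measured 11124, 12049.5 and 9909.7 in the Treg day 6 libraries and 3915 and 3683 in those of Treg day 0. CD4 means for Gbp3 were 873 ± 46.5 at day 0, 1306 ± 383 in syngeneic, 2878 ± 432 in allogeneic and 2471 ± 1361 in Treg-treated hosts. CD8 means for Gbp3 were 945 ± 199.8, 1829 ± 339, 3108 ± 471 and 2434 ± 529 in that order. In CD4 and CD8 cells Gbp3 was lowest at day 0, with libraries at 906 and 841 and 804 and 1086, below all later libraries other than CD4 syngeneic replicate JL019-2 at 878. Ranked by Gbp3 mean, neighbouring groups shared no range at Treg day 6 above Treg day 0, and overlapped elsewhere.

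Gbp7, a guanylate-binding protein that neighbours Gbp3, measured 22589, 23962 and 20066 in the Treg day 6 libraries and 7003 and 5634 in those of Treg day 0. CD4 means for Gbp7 were 3936 ± 249 at day 0, 4177 ± 1595 in syngeneic, 8084 ± 485 in allogeneic and 6141 ± 2869 in Treg-treated hosts. CD8 means for Gbp7 were 3973 ± 625, 6068 ± 1329, 7212 ± 1407 and 6112 ± 1461 in that order. As for Gbp3, the lowest means were those of CD8 and CD4 day 0, and CD4 syngeneic replicate JL019-2 was the lowest library, at 2404. Of the groups adjacent by Gbp7 mean, those without overlap were Treg day 6 above CD4 allogeneic.

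Gbp4, a guanylate-binding protein of the chromosome 5 group, measured 17807, 16790.4 and 19830.0 in the Treg day 6 libraries and 5259.7 and 6697 in those of Treg day 0. CD4 means for Gbp4 were 6332 ± 8.14 at day 0, 6073 ± 3612 in syngeneic, 6744 ± 527 in allogeneic and 5892 ± 3746 in Treg-treated hosts. CD8 means for Gbp4 were 5081 ± 269.5, 9556 ± 2731, 5512 ± 983 and 5304 ± 1525 in that order. The library nearest to Treg day 6 was among the CD8 syngeneic libraries, at 9819, 12146 and 6703. In the order of the Gbp4 means, libraries of adjacent groups were fully separated at Treg day 6 above CD8 syngeneic.

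Gbp6, a guanylate-binding protein of that group, measured 16296, 16144 and 17152 in the Treg day 6 libraries and 7069 and 6697 in those of Treg day 0. CD4 means for Gbp6 were 4082 ± 224 at day 0, 4076 ± 2472 in syngeneic, 5245 ± 349 in allogeneic and 4672 ± 2827 in Treg-treated hosts. CD8 means for Gbp6 were 3916 ± 611, 4793 ± 1594, 2342 ± 519 and 1796 ± 448 in that order. CD8 allogeneic and Treg-treated libraries held the lowest mean levels. Ranked by Gbp6 mean, neighbouring groups shared no range at Treg day 6 above Treg day 0, Treg day 0 above CD4 allogeneic and CD8 day 0 above CD8 allogeneic, and overlapped elsewhere.

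Gbp9, a further member of the chromosome 5 group, measured 6276, 6262 and 6542 in the Treg day 6 libraries and 4392 and 4830.3 in those of Treg day 0. CD4 means for Gbp9 were 4572 ± 126 at day 0, 2519.9 ± 1590.3 in syngeneic, 2728 ± 215 in allogeneic and 1915 ± 1549.9 in Treg-treated hosts. CD8 means for Gbp9 were 5147 ± 841, 3451 ± 1383, 1580.5 ± 332 and 979 ± 406 in that order. Gbp9 separated Treg day 6 from the rest by the smallest margin of the 6 GBPs: CD8 day 0 replicate JL027 reached 5741. Of the groups adjacent by Gbp9 mean, those without overlap were Treg day 6 above CD8 day 0.

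Irgm1, a regulatory immunity-related GTPase, measured 11245, 12316 and 16894 in the Treg day 6 libraries and 6333 and 4489.8 in those of Treg day 0. CD4 means for Irgm1 were 4837 ± 149 at day 0, 5646 ± 1472 in syngeneic, 5015 ± 539.9 in allogeneic and 6462 ± 2447 in Treg-treated hosts. CD8 means for Irgm1 were 5115 ± 1010.2, 6091 ± 355, 3443 ± 855 and 2962 ± 438 in that order. CD8 allogeneic and Treg-treated cells again held the lowest mean levels. In the order of the Irgm1 means, libraries of adjacent groups were fully separated at Treg day 6 above CD4 Treg-treated and CD4 day 0 above CD8 allogeneic.

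Irgm2, a regulatory immunity-related GTPase, measured 3809.7, 3268 and 4461 in the Treg day 6 libraries and 1529 and 1455 in those of Treg day 0. CD4 means for Irgm2 were 1741 ± 120.5 at day 0, 1440.3 ± 894 in syngeneic, 1248 ± 116 in allogeneic and 1253 ± 1082 in Treg-treated hosts. CD8 means for Irgm2 were 1140.2 ± 239, 1255 ± 448, 896 ± 70.9 and 835 ± 369 in that order. A single library, CD4 Treg-treated replicate JL027-1 at 2834, lay near the Treg day 6 range. Ranked by Irgm2 mean, neighbouring groups shared no range at Treg day 6 above CD4 day 0, CD4 day 0 above Treg day 0 and CD8 day 0 above CD8 allogeneic, and overlapped elsewhere.

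Igtp, the regulatory GTPase also called Irgm3, measured 27513, 27537 and 29133 in the Treg day 6 libraries and 11594 and 10862 in those of Treg day 0. CD4 means for Igtp were 9478 ± 214 at day 0, 8744 ± 3654 in syngeneic, 9864 ± 933 in allogeneic and 10827 ± 2646 in Treg-treated hosts. CD8 means for Igtp were 7084 ± 1406, 12379 ± 736, 6259 ± 972 and 5550.5 ± 754 in that order. The CD8 syngeneic libraries, at 11748, 12202 and 13188, were above all CD8 libraries of the other arms. Of the groups adjacent by Igtp mean, those without overlap were Treg day 6 above CD8 syngeneic and CD8 syngeneic above Treg day 0.

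Iigp1, the effector GTPase also called Irga6, measured 4199, 4809.6 and 7261 in the Treg day 6 libraries and 2497 and 1516 in those of Treg day 0. CD4 means for Iigp1 were 717 ± 69.0 at day 0, 873 ± 437 in syngeneic, 389 ± 77.8 in allogeneic and 1155 ± 560.4 in Treg-treated hosts. CD8 means for Iigp1 were 323 ± 30.1, 412 ± 104, 109 ± 76.5 and 110.4 ± 47.6 in that order. Iigp1, on chromosome 18, had the widest range of group means of the 10 genes, as a ratio: CD8 allogeneic libraries were at 95.1, 61.2, 221 and 58.8 and CD8 Treg-treated libraries at 87.4, 89.4, 182 and 83.1. In the order of the Iigp1 means, libraries of adjacent groups were fully separated at Treg day 6 above Treg day 0, CD4 day 0 above CD8 syngeneic and CD8 day 0 above CD8 Treg-treated.

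**Figure D2:**
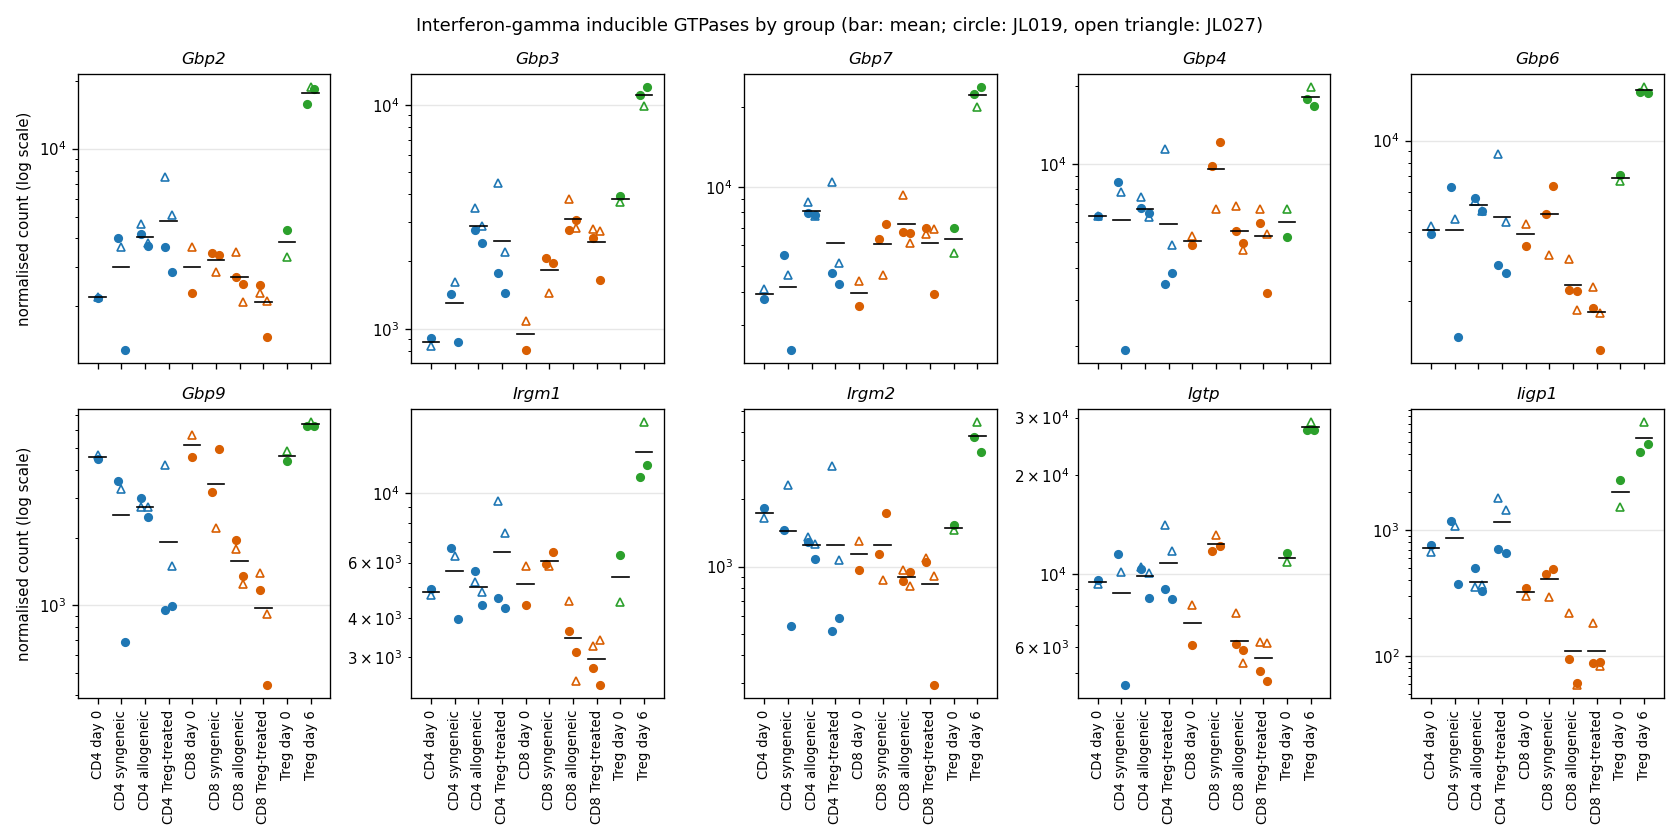
Normalised counts (log scale) of the 10 members in the 31 libraries, by group; circles are JL019 libraries, open triangles JL027 libraries, and bars group means. The 3 Treg day 6 libraries are above all others in every panel, and CD8 allogeneic and Treg-treated libraries are lowest for Iigp1.

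Set against T cells of the same kind of host, all 10 members were higher in Treg day 6. Against CD4 Treg-treated cells the log2 changes ran from 1.12 (Irgm1) to 2.32 (Iigp1), with a median of 1.97 beside 0.14 over all genes, and all 10 passed the test (limma, adjusted p under 0.05), where 13.9% of all genes were called higher. Gbp3 rose by 2.29 ± 0.27, adjusted p 1.11e-06 (log2 ± SE), Igtp by 1.41 ± 0.23, adjusted p 6.97e-05 and Iigp1 by 2.32 ± 0.43, adjusted p 0.000294. Against CD8 Treg-treated cells, a comparison added after the data were seen, all 10 also passed, from 1.82 (Gbp4) to 5.65 (Iigp1), where 17.6% of genes were called higher. Gbp6 was higher by 3.24 ± 0.37, adjusted p 1.82e-07, and Iigp1 by 5.65 ± 0.43, adjusted p 1.26e-10. The groups did not overlap for any of the 10 in either comparison, as for 17.1% (against CD4) and 21.1% (against CD8) of all genes, higher in Treg day 6. Myeloid markers were lower in Treg day 6 (0.0253% to 0.0317% of the total over 12 markers, none at 0) than in CD4 (0.0358% to 0.0827%) and CD8 Treg-treated libraries (0.0342% to 0.0651%), as were 4 natural killer markers (0.000202% to 0.000366%, against 0.000842% to 0.00128% and 0.00226% to 0.00661%). B cell markers were at 0.00238% to 0.00338%, below CD8 (0.00407% to 0.00535%) and overlapping CD4 Treg-treated libraries. The part of these in the result was not tested. Within the prefixes JL019 and JL027 of the sample names, all 10 changes against CD4 Treg-treated cells were above 0, at 1.40 to 2.85 and 1.01 to 2.17. With JL027 libraries alone (1 against 2) no member passed.

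Treg at day 6 also had more member RNA than Treg at day 0. Every day 6 library was above both day 0 libraries for all 10 members, as for 26.9% of all genes, and 6 members passed the test, where 8.43% of genes were called higher. Gbp2 rose by 2.21 ± 0.37, adjusted p 0.000103, Gbp7 by 1.82 ± 0.33, adjusted p 0.000243 and Gbp4 by 1.61 ± 0.46, adjusted p 0.0172. Gbp3 rose by 1.53 ± 0.33, adjusted p 0.00161. Of the regulatory IRGs, Irgm1 rose by 1.32 ± 0.30, adjusted p 0.00257 and Igtp by 1.32 ± 0.27, adjusted p 0.00104. Gbp6 (1.26 ± 0.45, adjusted p 0.0604), Irgm2 (1.35 ± 0.56, adjusted p 0.119), Iigp1 (1.44 ± 0.51, adjusted p 0.0638) and Gbp9 (0.47 ± 0.55, adjusted p 0.663) did not pass. Without CD4 syngeneic replicate JL019-2, which is in this fit only for the spread, Gbp6 (adjusted p 0.0117) and Iigp1 (adjusted p 0.0307) passed as well, giving 8 calls. Calls were also lost: that of Gbp4 without either Treg day 0 library or Treg day 6 replicate JL027 (adjusted p up to 0.177), and that of Irgm1 without Treg day 0 replicate JL027 (0.0836). The member median was 1.40, beside -0.066 over all genes. Myeloid markers held 0.0253% to 0.0317% of the total at day 6 and 0.0331% to 0.0336% at day 0. Erythroid markers (5 genes) held 0.00252% to 0.0617% and 0.000152% to 0.000439%, and natural killer markers 0.000202% to 0.000366% and 0.00135% to 0.00168%, in that order. B cell markers held 0.00238% to 0.00338% and 0.00504% to 0.00618%. Their part in the result was not tested.

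Whether the change from day 0 was higher in Treg than in the other cells of Treg-treated hosts was tested as a difference of changes, also added after the data were seen. Against CD8 cells 6 members passed, where 2.96% of genes were called higher: Iigp1 (3.06 ± 0.71, adjusted p 0.00708), Gbp9 (2.97 ± 0.76, adjusted p 0.0165), Gbp2 (2.71 ± 0.51, adjusted p 0.00108), Gbp6 (2.42 ± 0.61, adjusted p 0.0154), Irgm1 (2.10 ± 0.41, adjusted p 0.00144) and Igtp (1.67 ± 0.37, adjusted p 0.00553). The others were Irgm2 at 1.95, Gbp4 at 1.60, Gbp7 at 1.23 and Gbp3 at 0.18. For the 6 that passed, the change was above 0 in Treg and below 0 in CD8 cells. It was 0.47 (not called) and -2.50 for Gbp9, 1.44 (not called) and -1.62 for Iigp1, and 1.26 (not called) and -1.15 for Gbp6. For Gbp2 it was 2.21 and -0.50, for Irgm1 1.32 and -0.79, and for Igtp 1.32 and -0.35. Against CD4 cells no member passed in limma, 7 had an unadjusted p under 0.05, and 4.71% of genes were called in either direction. This count was 4 with the recipient as a block, 2 with the replicate label and 1 with the prefix. All 10 differences were above 0, from 0.17 (Gbp3) to 2.18 (Irgm2). Without CD4 Treg-treated replicate JL027-1 the unblocked count became 8, with Irgm2 at 2.69 and Gbp4 at 2.27, and without CD4 syngeneic replicate JL019-2 it became 5. Without the latter library Gbp4 also passed against CD8 cells (adjusted p 0.0332). Without CD8 day 0 replicate JL027 or Treg day 0 replicate JL027 the count against CD8 cells was 3: the former lost Gbp6, Gbp9 and Igtp, and the latter Gbp6, Gbp9 and Iigp1. Gbp6 and Gbp9 were also lost without Treg day 0 replicate JL019. Foxp3 differed in the same test against CD8 cells (-4.12, adjusted p 0.0189), and the myeloid gene Lyz2 in that against CD4 cells (-4.82, adjusted p 0.0386). Their part in the result was not tested.

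**Figure D3:**
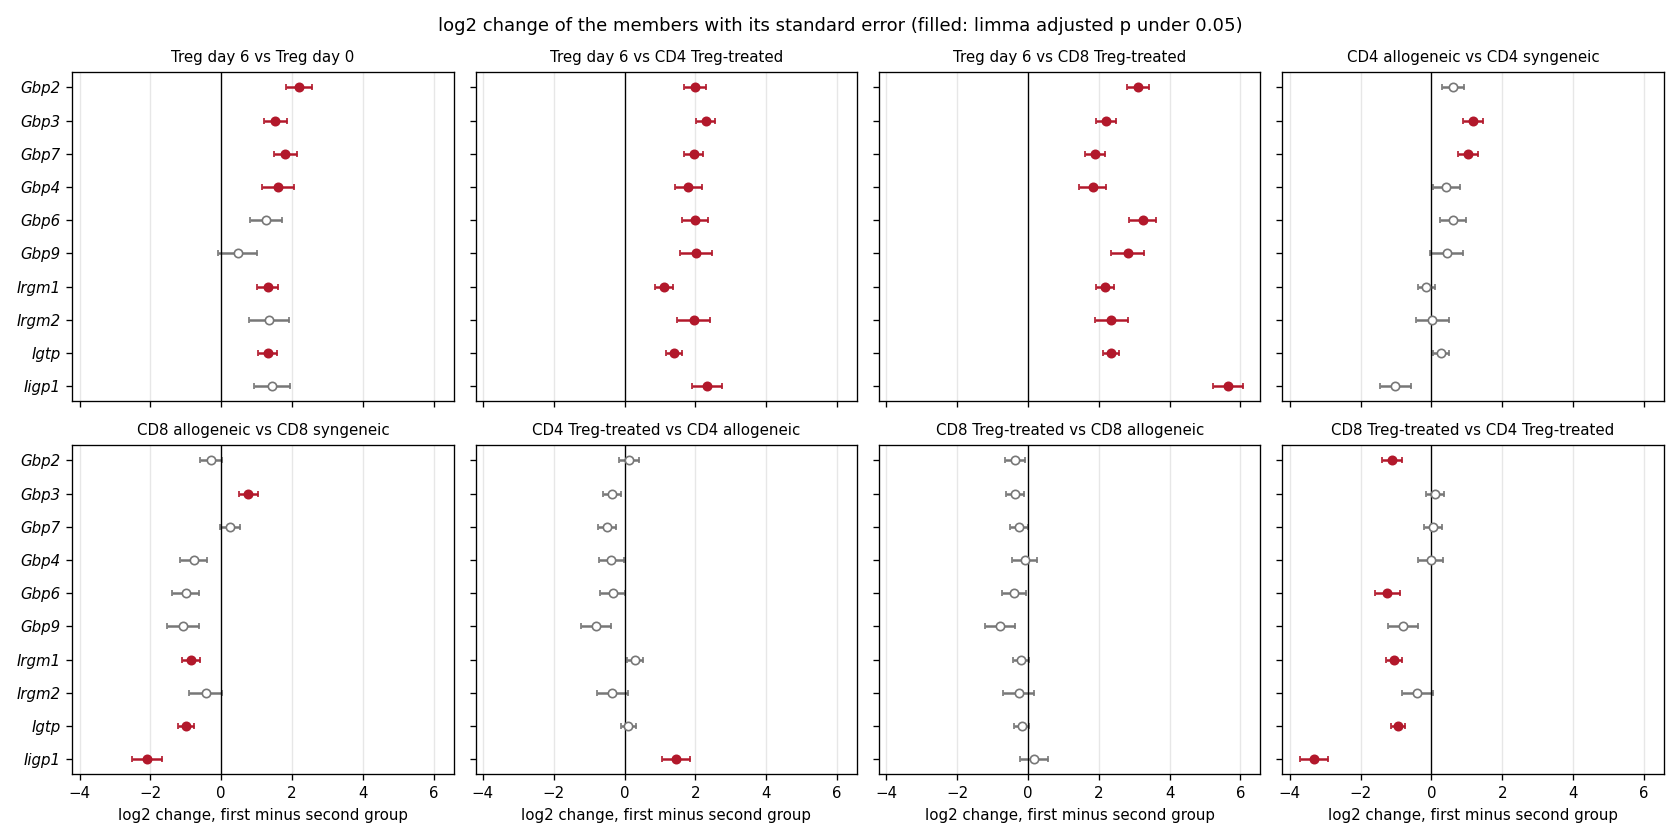
log2 change of each member (x axis) with its standard error in 8 comparisons; filled points passed the test across all genes (limma, adjusted p under 0.05), open points did not. All 10 points are filled in both comparisons of Treg day 6 with cells of Treg-treated hosts, and none in CD8 Treg-treated against CD8 allogeneic cells.

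Before transplantation, CD8 and Treg cells were each compared with CD4 cells, and Treg were not tested against CD8 cells. Gbp3 was the member called between Treg and CD4 cells at day 0, at 3915 and 3683 against 906 and 841, a difference of 2.12 ± 0.36, adjusted p 0.000480, where 2.54% of genes were called higher. Both Treg libraries lay above both CD4 libraries for 6 members, as for 30.5% of all genes. Iigp1, at 2497 and 1516 against 766 and 668, differed by 1.44 ± 0.56, adjusted p 0.184. Between CD8 and CD4 cells at day 0 no member passed in limma, none had an unadjusted p under 0.05, and 3.32% of genes were called in either direction. With 2 libraries a group, these comparisons have the fewest samples. Other cell type markers also differed without overlap between Treg and CD4 cells at day 0. Myeloid markers held 0.0331% to 0.0336% of the total against 0.0158% to 0.0204%, and B cell markers 0.00504% to 0.00618% against 0.00260% to 0.00339%. Lower in Treg were erythroid (0.000152% to 0.000439% against 0.00218% to 0.00339%), natural killer (0.00135% to 0.00168% against 0.00179% to 0.00203%) and stromal and endothelial markers (0.0132% to 0.0165% against 0.0217% to 0.0227%). Their part was not tested.

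Gbp2b, a further GBP of the chromosome 3 family, fell between Treg day 0 and day 6, where no member was called lower. It was highest in Treg day 0, at 1398 and 1134, and lower in Treg day 6, at 229, 185 and 204, a change of -2.61 (adjusted p 0.0206 in limma). CD4 day 0 libraries were at 82.1 and 90.7, and the remaining group means were from 3.83 to 31.9. Among the other family genes, 2 of 17 rose and 1 fell (median log2 change 0.54, all genes -0.066) between Treg day 6 and day 0, Gm4951 (1267 against 278) and Gm12250 (5166 against 1623) being those that rose, where 8.43% of all genes were called higher. Against CD4 Treg-treated cells 14 of the 17 were higher in Treg day 6 and none lower, beside 13.9% of all genes, with a median log2 change of 1.59. Against CD8 Treg-treated cells 14 were higher as well, beside 17.6%, among them Gm4951 (1267 against 29.5, adjusted p 1.57e-13) and the effector IRG Tgtp1 (12935 against 1177).

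In CD8 cells, 4 of the 10 members were called between allogeneic and syngeneic hosts: 3 were lower in allogeneic hosts, all of them IRGs, and 1 was higher. Iigp1 was at 95.1, 61.2, 221 and 58.8 in allogeneic and 452, 490.0 and 294 in syngeneic hosts, and fell by 2.10 on the log2 scale (adjusted p 0.000626, limma). Igtp was at 6149, 5893, 7631 and 5360.5 against 11748, 12202 and 13188 (-0.99 ± 0.23, adjusted p 0.00190), and Irgm1 at 3627, 3101, 4529 and 2513 against 5922, 6499 and 5852 (-0.85 ± 0.25, adjusted p 0.0133). No allogeneic library reached a syngeneic one for these 3 genes, nor for Gbp6 (-1.001 ± 0.37, adjusted p 0.0557) and Gbp9 (-1.07 ± 0.46, adjusted p 0.103), which did not pass. Both passed without CD4 syngeneic replicate JL019-2, which enters this comparison only through the spread (adjusted p 0.0119 and 0.0339), giving 6 calls. Such separation, lower in allogeneic cells, held for 15.4% of all genes. Gbp3 went the other way: it was higher, at 2756, 3069.7, 3784 and 2820.4 against 2080.1, 1963 and 1444 (0.77 ± 0.27, adjusted p 0.0454). Of all genes 10.7% were called lower and 10.4% higher. The Gbp3 call was lost without any 1 of the 7 libraries compared (adjusted p up to 0.222), and that of Irgm1 without CD8 allogeneic replicate JL027-2 (0.0575), which left 2 members called. Within prefixes Iigp1 changed by -2.61 (JL019) and -1.36 (JL027), and Igtp by -0.99 and -1.04. Irgm2, the IRG that was not called (-0.43), changed by -0.65 and 0.023 in that order.

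Type I interferon-stimulated genes moved alongside: 1 of 22 rose and 17 fell (median log2 change -1.30, all genes 0.017) in CD8 allogeneic against syngeneic cells, beside a member median of -0.81. Usp18, which dampens type I interferon signalling, was at 785 against 5299.6 and Rtp4 at 1207 against 4929 (means), whereas the RNA sensor Ifih1 was higher (1078 against 367). Of the other family genes 0 of 17 rose and 7 fell (median log2 change -0.56, all genes 0.017), Gbp8 (833 against 2815) and Tgtp1 (1393 against 6826) having the lowest adjusted p. In the list of 14 ligand, receptor and signalling genes, 2 rose and 5 fell: the ligand Ifng rose (6341 against 2230.3), as did the receptor chain Ifngr1 (43628 against 13943), while the other chain Ifngr2 (42.0 against 281) and the feedback inhibitor Socs1 (596 against 3191) fell. Ifnar2, a chain of the type I interferon receptor, fell too (893 against 4432). Of the other interferon-gamma targets 4 of 20 rose and 3 fell (median log2 change 0.24, all genes 0.017). Myeloid markers held 0.0344% to 0.0407% of the total in allogeneic and 0.0551% to 0.0734% in syngeneic libraries, and 4 natural killer markers 0.00316% to 0.00495% and 0.00901% to 0.0115%. B cell markers held 0.00402% to 0.00413% and 0.00925% to 0.0150%. Stromal and endothelial markers held 0.00833% to 0.0102% and 0.00270% to 0.00567%. Foxp3 was higher in allogeneic libraries (log2 change 7.35, adjusted p 2.05e-09). Adgre1 was listed at 0 in 1 allogeneic library. Their part in the result was not tested.

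No member was called for Treg treatment in CD8 cells. Between CD8 Treg-treated and allogeneic cells none had an unadjusted p under 0.05 in limma, and 0.0657% of all genes were called in either direction. The log2 changes were from -0.79 (Gbp9) to 0.16 (Iigp1), 9 of 10 below 0, with standard errors up to 0.43. Against syngeneic cells, CD8 Treg-treated cells had 5 members called lower, where 8.63% of genes were: Iigp1 (-1.94 ± 0.43, adjusted p 0.00145), Gbp9 (-1.86 ± 0.46, adjusted p 0.00435), Gbp6 (-1.40 ± 0.37, adjusted p 0.00789), Igtp (-1.17 ± 0.23, adjusted p 0.000367) and Irgm1 (-1.05 ± 0.25, adjusted p 0.00264). These 5 and Gbp2 (-0.65, not called) had no overlap between the groups, as for 11.8% of all genes, lower in Treg-treated cells. Gbp4 (-0.86) passed too without CD4 syngeneic replicate JL019-2 (adjusted p 0.0329), and Gbp6 did not without CD8 syngeneic replicate JL019-2 (adjusted p 0.0627). Gbp9 was at 1169.8, 443, 1387 and 916 against 3190.4, 4945 and 2217. Of the type I interferon-stimulated genes 1 of 22 rose and 15 fell (median log2 change -1.27, all genes 0.00832) in the same comparison. Of the other interferon-gamma targets 4 of 20 rose and 1 fell (median -0.19), where 9.56% of all genes were called higher. Of the signalling genes 2 of 14 rose and 6 fell (median -0.40), and of the other family genes 0 of 17 rose and 8 fell (median -0.80). Myeloid markers held 0.0342% to 0.0651% of the total in Treg-treated libraries, natural killer markers 0.00226% to 0.00661% (syngeneic 0.00901% to 0.0115%) and B cell markers 0.00407% to 0.00535% (syngeneic 0.00925% to 0.0150%). Stromal and endothelial markers held 0.00631% to 0.0103%, against 0.00270% to 0.00567% in syngeneic libraries. Foxp3 was higher than in syngeneic libraries (log2 change 6.51, adjusted p 1.98e-08), and the part of these was not tested either.

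CD4 cells of allogeneic hosts differed from syngeneic ones in 2 members, both higher: Gbp3 at 2770.3, 2408, 3451 and 2882 against 1425, 878 and 1615 (1.17 ± 0.27, adjusted p 0.00332) and Gbp7 at 7969, 7793, 8799 and 7774 against 5493, 2404 and 4634 (1.03 ± 0.27, adjusted p 0.00936). Of all genes 6.69% were called higher and 7.91% lower. Without CD4 syngeneic replicate JL019-2, the library with myeloid markers and the lowest member levels of its group, Gbp3 was at 0.91 (adjusted p 0.0433), Gbp7 no longer passed (0.68, adjusted p 0.130), and Iigp1 passed as lower (-1.55, adjusted p 0.0186). With that library Iigp1 was at 503, 329.7, 354 and 369 against 1175, 373 and 1072 (-1.02 ± 0.43, adjusted p 0.122). Of the 10 changes, 8 were above 0 with JL019-2. Without it Gbp4 (-0.27), Gbp6 (-0.029), Gbp9 (-0.33), Irgm1 (-0.38), Irgm2 (-0.56) and Igtp (-0.14) were below 0, as was Iigp1. Ifng rose from a mean of 840.1 to 4432, and Ifngr2 fell from 2205 to 70.3. Of the type I interferon-stimulated genes 0 of 22 rose and 8 fell (median log2 change -0.48, all genes -0.00142), and without JL019-2 4 fell. The other lists are given with all libraries. Of the other interferon-gamma targets 5 of 20 rose and 1 fell (median 0.57). Of the signalling genes 3 of 14 rose and 1 fell (median -0.29), and of the other family genes 0 of 17 rose and 4 fell (median -0.13). Myeloid markers held 0.0948% to 2.91% of the total in syngeneic and 0.0237% to 0.0314% in allogeneic libraries, and Cd8a (log2 change -2.91, adjusted p 0.00256) and Cd8b1 (-1.65, adjusted p 0.00129) were lower in allogeneic ones. Without JL019-2, the syngeneic libraries had B cell markers at 0.00111% and 0.00113% and natural killer markers at 0.000285% and 0.000389%, below the allogeneic ones (0.00376% to 0.00512% and 0.00107% to 0.00133%). The part of these beyond leaving out JL019-2 was not tested.

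The allogeneic effect was called as different between CD8 and CD4 cells for 1 member, Igtp, by -1.27 ± 0.32, adjusted p 0.0187, where 1.96% of genes were called lower. With the recipient as a block the count was 2. All 10 differences were below 0. Without CD4 syngeneic replicate JL019-2 no member passed, Igtp being at -0.86 (adjusted p 0.0601), and Irgm2 turned from -0.45 to 0.14. Leaving out JL019-1 of that group gave 2 calls. CD4 Treg-treated against syngeneic cells had 1 call, Gbp3 (0.83 ± 0.27, adjusted p 0.0385), where 8.23% of genes were called higher, and its groups overlapped. Without CD4 syngeneic replicate JL019-2, Gbp3 was at 0.56 (adjusted p 0.153) and Gbp9 passed as lower (-1.13, adjusted p 0.0460). With that library 8 of the changes were above 0. Without it Gbp4 (-0.65), Gbp6 (-0.37), Irgm1 (-0.083), Irgm2 (-0.91), Igtp (-0.028) and Iigp1 (-0.093) were below 0, as was Gbp9. With the replicate label as a block no member passed. The Gbp3 call was also lost without CD4 syngeneic replicate JL019-1 or CD4 Treg-treated replicate JL027-1 or JL027-2, and 2 members passed without JL019-2 of the Treg-treated group. Myeloid markers were lower in Treg-treated (0.0358% to 0.0827%) than in syngeneic libraries (0.0948% to 2.91%), as were Lyz2 among them (log2 change -3.67, adjusted p 0.00268) and the CD8 chains Cd8a (-2.74, adjusted p 0.00470) and Cd8b1 (-1.21, adjusted p 0.0169). Without JL019-2 the syngeneic libraries held B cell markers at 0.00111% and 0.00113% and natural killer markers at 0.000285% and 0.000389%, below the Treg-treated ones (0.00173% to 0.00421% and 0.000842% to 0.00128%). In the difference of allogeneic effects Foxp3 was at 6.70, adjusted p 3.55e-05. The part of these in the results was not tested.

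In CD4 cells 1 of the 10 members was called for Treg treatment, a share near that of all genes called higher. With array weights, whose estimation stopped before convergence, more members were called. Iigp1 was at 712, 661, 1801 and 1445 in Treg-treated and 503, 329.7, 354 and 369 in allogeneic hosts, with no overlap, as for 12% of all genes, a rise of 1.45 ± 0.40, adjusted p 0.0164, where 10.7% of genes were called higher. The call was lost without CD4 Treg-treated replicate JL027-2 (adjusted p 0.0606) or CD4 allogeneic replicate JL019-2 (adjusted p 0.0507). The other 9 changes were from -0.80 (Gbp9) to 0.29 (Irgm1). Within the Treg-treated group, replicate JL027-1 was the highest for all 10 members, for example Gbp6 at 2874, 2645, 8743 and 4427 and Irgm2 at 517, 587, 2834 and 1076 in the order JL019-1, JL019-2, JL027-1 and JL027-2. Without JL027-1, 4 members passed: Iigp1 higher (1.19, adjusted p 0.0268) and Gbp9 (-1.27, 0.0154), Gbp7 (-0.78, 0.0117) and Gbp3 (-0.68, 0.0171) lower. Within prefixes Iigp1 was above 0 in both (0.75 and 2.16), whereas Gbp2, Gbp4, Gbp6, Irgm1, Irgm2 and Igtp were below 0 in JL019 and above 0 in JL027, Irgm2 at -1.10 and 0.42. Myeloid markers held 0.0358% to 0.0827% of the total in Treg-treated and 0.0237% to 0.0314% in allogeneic libraries, and 5 erythroid markers 0.00520% to 0.0619% and 0.000717% to 0.0118%. Stromal and endothelial markers held 0.00446% to 0.0117% and 0.0133% to 0.0152%. Their part in the result was not tested.

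**Figure D4:**
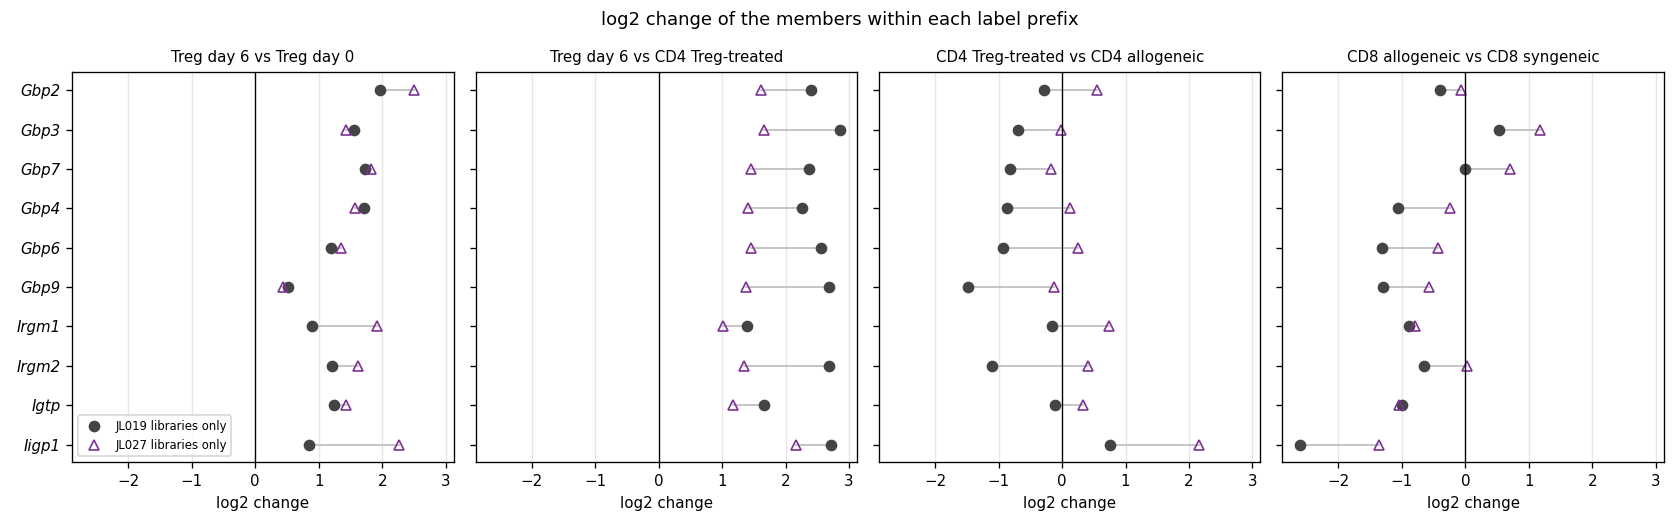
log2 change of each member (x axis) computed within the JL019 libraries (circles) and within the JL027 libraries (open triangles) for 4 comparisons, grey lines joining the values of a gene. Treg day 6 changes are above 0 in both prefixes for all members, whereas in CD4 Treg-treated against allogeneic cells 6 members take opposite signs.

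Counts of other pathway genes called between CD4 Treg-treated and allogeneic cells stand beside 10.7% of all genes called higher and 11.5% lower. For the other GBP and IRG family genes the counts were near those shares or below them. Gm4951, a predicted IRG, was at 222 against 104 and the effector Tgtp2 at 3413 against 1865 (both higher), and 9930111J21Rik1 at 1033 against 2378 (lower), so that 2 of 17 rose and 1 fell (median log2 change 0.49, all genes -0.00181) among the other family genes. Without JL027-1 this became 1 and 4, and without CD4 syngeneic replicate JL019-2, which is in the fit only for the spread, 4 and 2. Of the type I interferon-stimulated genes 8 of 22 rose and 1 fell (median log2 change 0.46, all genes -0.00181), Ifi27l2a (74771 against 26486) and Isg15 (2661 against 999) among those higher and Oas3 (833 against 2701) lower. Of 20 other interferon-gamma targets, 7 rose, with the surface protein Ly6a at 136890.4 against 63835 and B2m at 251281 against 110708, and Dtx3l (2049.6 against 4433) fell. Without either of those libraries 5 fell. Of the signalling genes 3 of 14 rose, among them Ifngr2 (383 against 70.3) and Socs1 (2741 against 1201). Ifngr1 (21594 against 35064) and the kinase gene Jak2 (2359 against 4389) fell. The difference of the Treg effects between CD8 and CD4 cells had no member called in limma, 1 with an unadjusted p under 0.05, and 0.00597% of genes called, with Iigp1 at -1.30 ± 0.56, adjusted p 0.898.

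Relative to day 0, Gbp3 rose in 5 of the 6 comparisons of CD4 or CD8 cells, whereas Gbp9 and Iigp1 were called lower in some and never higher. CD4 allogeneic cells had Gbp3 (1.71 ± 0.31, adjusted p 0.000135) and Gbp7 (1.04 ± 0.31, adjusted p 0.0149) called higher, where 14.4% of genes were, and Gbp2 (0.89) joined them without CD4 syngeneic replicate JL019-2 (adjusted p 0.0176). CD4 Treg-treated cells had Gbp3 (1.36 ± 0.31, adjusted p 0.00107) and Gbp2 (1.02 ± 0.35, adjusted p 0.0217) called higher and Gbp9 (-1.55 ± 0.52, adjusted p 0.0201) lower, beside 22.2% and 18.9% of genes. With the library mean as a covariate the Gbp9 change turned to 0.23. Without CD4 Treg-treated replicate JL027-1 Gbp2 no longer passed (0.77, adjusted p 0.0662) and Irgm2 passed as lower (-1.34, adjusted p 0.0211). The Gbp9 call was lost without JL019-1 or JL019-2 of that group. With the replicate label as a block, the counts for allogeneic and Treg-treated cells were each 1. In CD4 syngeneic cells no member passed in limma, 1 had an unadjusted p under 0.05, and 13% of genes were called in either direction. None passed without CD4 syngeneic replicate JL019-2 either, Gbp9 went from -1.18 to -0.41, and Gbp4, Gbp6, Irgm2 and Igtp turned from below to above 0. Without either CD4 day 0 library, the counts for allogeneic and Treg-treated cells each became 1. Myeloid markers held 0.0158% to 0.0204% of the total at CD4 day 0, below the 3 later CD4 groups. Erythroid markers held 0.00218% to 0.00339% there, 0.00718% to 0.456% in syngeneic, 0.00520% to 0.0619% in Treg-treated and 0.000717% to 0.0118% in allogeneic libraries. Natural killer markers were higher at day 0 (0.00179% to 0.00203%) than in allogeneic (0.00107% to 0.00133%) and Treg-treated libraries (0.000842% to 0.00128%), and stromal and endothelial markers (0.0217% to 0.0227%) than in all 3 later groups. B cell markers were lower at day 0 (0.00260% to 0.00339%) than in allogeneic libraries (0.00376% to 0.00512%). Foxp3 was lower in Treg-treated cells than at day 0 (log2 change -2.77, adjusted p 0.00409). The part of these was not tested.

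CD8 allogeneic cells had Gbp3 (1.72 ± 0.31, adjusted p 0.000107) and Gbp7 (0.85 ± 0.31, adjusted p 0.0389) above day 0 and Gbp9 (-1.72 ± 0.52, adjusted p 0.0140) and Iigp1 (-1.78 ± 0.49, adjusted p 0.00638) below it, beside 16.3% of genes called higher and 14.2% lower. CD8 Treg-treated cells had Gbp3 higher (1.35 ± 0.31, adjusted p 0.00126) and Gbp9 (-2.50 ± 0.52, adjusted p 0.000487), Iigp1 (-1.62 ± 0.49, adjusted p 0.0101), Gbp6 (-1.15 ± 0.42, adjusted p 0.0329) and Irgm1 (-0.79 ± 0.28, adjusted p 0.0283) lower, beside 20.1% and 18.3%. With the library mean as a covariate the Gbp6 change turned to 0.23. CD8 syngeneic cells had Gbp3 (0.95 ± 0.33, adjusted p 0.0362) and Igtp (0.82 ± 0.27, adjusted p 0.0300) higher, where 13% of genes were. The counts depended on single libraries and on the block. With the replicate label as a block each of the 3 counts was 1. Gbp7 in allogeneic cells was lost without any of CD8 allogeneic JL019-1, JL019-2 and JL027-1. In Treg-treated cells Gbp6 and Irgm1 were lost when JL019-2 of that group was left out, and Gbp6 also without its JL027-2. Without CD8 day 0 replicate JL019 they were 1 (allogeneic), 2 (Treg-treated) and 0 (syngeneic), and without JL027 of that group 2 and 3 for the first pair. The syngeneic count was 0 without CD8 syngeneic replicate JL019-1 and 1 without either other library of its group. Comparisons of a cell type with day 0 share their day 0 libraries. Erythroid markers held 0.0672% to 0.0717% of the total at CD8 day 0, above the allogeneic (0.000826% to 0.0147%), Treg-treated (0.00281% to 0.0184%) and syngeneic libraries (0.00423% to 0.0118%). Natural killer markers held 0.00217% to 0.00259% at day 0 and 0.00901% to 0.0115% in syngeneic libraries, and 0.00316% to 0.00495% in allogeneic ones. Myeloid markers held 0.0322% to 0.0348% at day 0 and 0.0551% to 0.0734% in syngeneic libraries. B cell markers held 0.00984% to 0.0109% at day 0, 0.00402% to 0.00413% in allogeneic and 0.00407% to 0.00535% in Treg-treated libraries. Stromal and endothelial markers were higher at day 0 (0.0112% to 0.0113%) than in the 3 later groups. Foxp3 was higher than at day 0 in allogeneic (log2 change 4.88, adjusted p 1.07e-05) and Treg-treated cells (4.04, adjusted p 0.000112), and lower in syngeneic cells (-2.47, adjusted p 0.0242). The part of these in the results was not tested.

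CD8 cells held less of some members than CD4 cells from the same kind of host. In allogeneic hosts Iigp1 (-2.03 ± 0.40, adjusted p 0.00147) and Gbp6 (-1.19 ± 0.34, adjusted p 0.0359) were lower, where 3.09% of genes were called lower, and the count was 1 without any of 7 single libraries: each of the 4 CD4 allogeneic libraries, and CD8 allogeneic JL019-1, JL019-2 and JL027-2. Without CD4 syngeneic replicate JL019-2 Igtp (-0.66) passed as well (adjusted p 0.00683). In Treg-treated hosts 5 members were lower, where 4.71% of genes were: Iigp1 (-3.32 ± 0.40, adjusted p 1.29e-06), Irgm1 (-1.06 ± 0.23, adjusted p 0.00256), Igtp (-0.94 ± 0.21, adjusted p 0.00337), Gbp2 (-1.12 ± 0.29, adjusted p 0.0111) and Gbp6 (-1.24 ± 0.34, adjusted p 0.0197). Iigp1 was at 87.4, 89.4, 182 and 83.1 in CD8 and 712, 661, 1801 and 1445 in CD4 libraries. The CD8 libraries were below all CD4 libraries for those 5, as for 6.18% of all genes. Without CD4 Treg-treated replicate JL027-1, Gbp6 no longer passed (-0.88, adjusted p 0.0673), nor did it without JL027-2 of that group. A fit of only the CD4 and CD8 Treg-treated groups gave fewer calls. In syngeneic hosts no member passed in limma, 3 had an unadjusted p under 0.05, and 12% of genes were called in either direction. Without CD4 syngeneic replicate JL019-2, Iigp1 was lower in CD8 cells there too (-1.48, adjusted p 0.0399), and leaving out JL019-1 also gave a count of 1. With all libraries, 8 of the changes in syngeneic hosts were above 0. Without JL019-2, Gbp2 (-0.25), Gbp6 (-0.21), Gbp9 (-0.069), Irgm1 (-0.092) and Irgm2 (-0.61) were below 0, as was Iigp1. Of the type I interferon-stimulated genes 0 of 22 rose and 14 fell (median log2 change -1.32, all genes -0.025) in CD8 against CD4 Treg-treated cells. Natural killer markers were higher in CD8 than in CD4 libraries, at 0.00226% to 0.00661% against 0.000842% to 0.00128% in Treg-treated and 0.00316% to 0.00495% against 0.00107% to 0.00133% in allogeneic hosts. In allogeneic hosts CD8 libraries also had more of the myeloid markers (0.0344% to 0.0407% against 0.0237% to 0.0314%) and less of the stromal and endothelial ones (0.00833% to 0.0102% against 0.0133% to 0.0152%). Their part was not tested.

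The ligand was high in other groups than the members. Ifng was highest in CD8 and CD4 Treg-treated cells (8069.8 ± 2720.5 and 7654 ± 2435, SD) and in CD8 and CD4 allogeneic cells (6341 ± 716 and 4432 ± 494). Treg day 6 libraries, where the members were highest, had Ifng at 1328, 1438 and 1349, above Treg day 0 at 141 and 351 and below both Treg-treated groups (log2 change -2.43 against CD4, adjusted p 4.57e-06, and -2.50 against CD8, adjusted p 9.53e-07, limma). Ifngr1 rose between Treg day 0 and day 6 (45548 against 10159.8, adjusted p 1.34e-07). Irf1, which binds the ISRE, averaged 15486 ± 2329.7 in Treg day 6 and 11897 ± 528 in CD8 syngeneic cells.

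**Figure D5:**
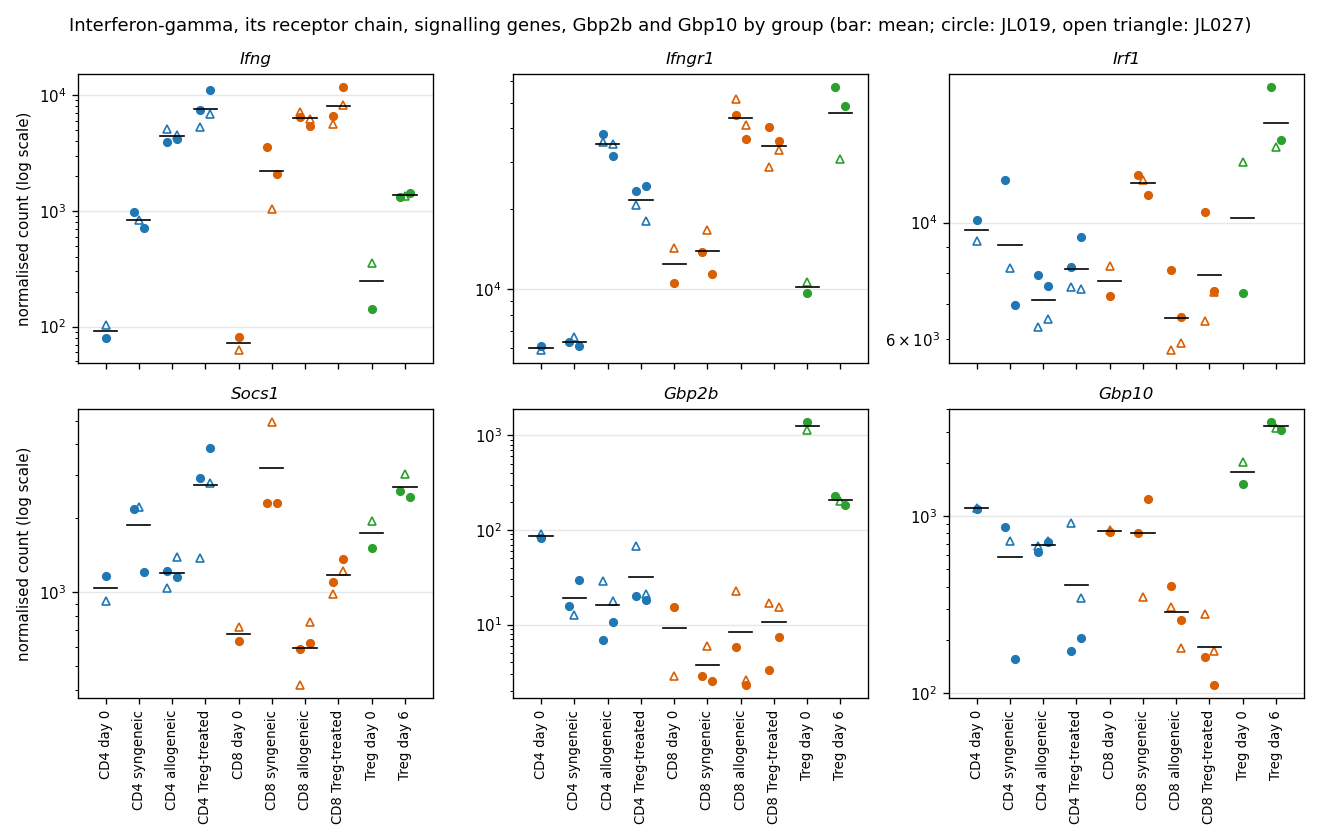
Normalised counts (log scale) of Ifng, Ifngr1, Irf1, Socs1, Gbp2b and Gbp10 in the 31 libraries by group, drawn as circles (JL019), open triangles (JL027) and bars for group means. By group mean Gbp10 is highest in Treg day 6, Ifng in CD8 Treg-treated cells and Gbp2b in Treg day 0.

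Genes of the other lists also differed between Treg day 6 and day 0, where 8.43% of all genes were called higher and 4.89% lower. Between Treg day 6 and day 0, 17 of 22 rose and 0 fell (median log2 change 1.78, all genes -0.066) among the type I interferon-stimulated genes, Oas1a going from 1095 to 6375 and Zbp1 from 2362 to 8290.3. Among the other interferon-gamma targets, 7 of 20 rose and 0 fell (median log2 change 1.16, all genes -0.066), and 10 rose without CD4 syngeneic replicate JL019-2, which is in the fit only for the spread, Ly6a (106756 against 6596) and the protease inhibitor gene Serpina3g (48285 against 4942) having the lowest adjusted p. Of the signalling genes 4 of 14 rose and 0 fell (median log2 change 0.49, all genes -0.066). Of 10 regulators of interferon output 5 rose, with the interleukin-12 receptor gene Il12rb2 at 2251 against 26.9 and Tbx21, the Th1 transcription factor, at 1428 against 204. None of 10 ATG8 conjugation genes, whose products help to load GBPs and IRGs on vacuoles, passed, and 1 did without that library. Against CD4 Treg-treated cells, where 13.9% of all genes were called higher and 16.1% lower, of the type I genes 7 of 22 rose and 0 fell (median log2 change 0.63, all genes 0.14). Of the other interferon-gamma targets 6 of 20 rose and 2 fell, the immunoproteasome genes Psmb8 (15137 against 25592) and Psmb10 (6516 against 11832). One ATG8 conjugation gene, Atg16l1 (1359 against 645), was higher there and 3 were lower, among them Atg3 (2335 against 4191). Of the signalling genes 7 of 14 rose and 1 fell (median log2 change 0.82, all genes 0.14), and of the regulators 2 of 10 rose and 1 fell (median log2 change 0.082, all genes 0.14). Against CD8 Treg-treated cells, where 17.6% of all genes were called higher and 18.7% lower, 19 of 22 type I genes and 13 of 20 other targets were higher and none lower. The remaining lists held genes called lower there: of the signalling genes 8 of 14 rose and 2 fell (median log2 change 1.09, all genes 0.14), of the regulators 3 of 10 rose and 4 fell (median log2 change -0.60, all genes 0.14), and of the ATG8 conjugation genes 0 of 10 rose and 2 fell (median log2 change -0.25, all genes 0.14). These lists, like the members, were chosen with earlier results of these data known.

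The members correlated with each other across libraries, Gbp3 and Gbp9 least. Over the 31 libraries the Pearson r of log2 values between 2 members had a median of 0.79 over 45 pairs, from 0.28 (Gbp3 and Gbp9) to 0.94 (Gbp3 and Gbp7). In the 26 CD4 and CD8 libraries, which leave out the high Treg day 6 values, the median was 0.63, from -0.27 (Gbp3 and Iigp1) to 0.91 (Gbp3 and Gbp7). These libraries share group, host and scaling, and the values are a description. The 8 genes most like the mean profile of the members, of 14468 compared (median r 0.0575), were Gpr155 (0.90), Gbp10 (0.87), Neu3 (0.87), Vipas39 (0.85), Birc3 (0.84), Elovl5 (0.83), Tmem123 (0.83) and Slc9a7 (0.82). Gbp10 belongs to the GBP family. Birc3 encodes an inhibitor of apoptosis, Neu3 a sialidase and Elovl5 a fatty acid elongase. Gpr155 averaged 1152 in Treg day 6, 718 in Treg day 0, 392 in CD4 and 161 in CD8 Treg-treated cells. In the CD4 and CD8 libraries alone its r was 0.84, and that of Tmem123 was 0.56.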

How the data were processed

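RNA of sorted mouse T cells was measured by bulk RNA-seq in 31 libraries, with SMARTer v4 cDNA and Nextera XT libraries per the labels' protocols. The signal values used are normalised counts deposited by the authors for 16741 genes, and the submitters' processing notes name FastQC 0.11.7, kallisto, DESeq2, GRCm38 and mm10. The mean over libraries equals the deposited base mean. The values are not whole, reads were not recovered and the depth is unknown, so no counting interval is given. The deposited fold change and p-value columns, which name no groups, and the TCR tables were not used here.

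log2(value + 1) was fitted in limma 3.58.1 (R 4.3.3, trend and robust options) with 1 mean per group over all 31 libraries, and p-values were adjusted over all 16741 genes (Benjamini-Hochberg, mean value of at least 1). Adjusted p under 0.05 is called. A fold change on the log2(value + 1) scale understates the change of low genes. Of 24 comparisons, 5 were added after the data were seen. The members and gene lists were chosen with earlier results of these data known. Named genes were the members, any other family gene, up to 2 rising and 2 falling genes of a list with the lowest adjusted p, and the 8 most like genes by Pearson r. Groups come from titles, and JL019 and JL027 are prefixes of the sample names, whose meaning is not given. The fit was also run on simulated data with known changes, whose outcome is not given here. Alternatives were the pseudocount, filter, scaling, covariates, weights, replicate blocks, samples in the fit and each library left out. Promoters come from RefSeq (GRCm38.p6); 4 members were not matched. Figures used matplotlib 3.10.9.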

Additional observations from a re-analysis of the deposited data

Results flagged for a closer look

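In 4 of 40 sets of 4 libraries of a member, 1 library stood far from the others by Dixon's test, where chance flags about 1 in 20 sets. CD4 Treg-treated replicate JL027-1 was the highest for Gbp7, at 10409.9 against 4272 to 5165, and for Gbp9, at 4210.1 against 959 to 1502. CD8 Treg-treated replicate JL019-2 was the lowest for Gbp7, at 3935 against 6607 to 7007. Iigp1 was highest in CD8 Treg-treated replicate JL027-1, at 182 against 83.1 to 89.4.

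Tests of a difference between cell types called 7 member results in limma. The allogeneic effect on Igtp was lower in CD8 than in CD4 cells by a log2 difference of -1.27, a call that was lost without CD4 syngeneic replicate JL019-2. The change from day 0 was higher in Treg than in CD8 Treg-treated cells for Gbp2 (2.71), Gbp6 (2.42), Gbp9 (2.97), Irgm1 (2.10), Igtp (1.67) and Iigp1 (3.06), in a comparison added after the data were seen.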

How the results depend on the processing

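Of 1612 alternative values of the 70 called member changes, 1408 kept direction and call, 202 kept direction and lost the call, and 2 reversed, both with the library mean as a covariate: Gbp9 in CD4 Treg-treated against day 0 (0.23) and Gbp6 in CD8 Treg-treated against day 0 (0.23). Of 3968 alternative values of the 170 changes not called, 196 were called. Centring libraries on their medians moved the median of all genes by over 0.1 (log2) in 16 of 24 comparisons, by up to 0.31 in CD4 Treg-treated against syngeneic, and quantile normalisation in 8, by up to 0.13. Neither reversed a called change. Depth is unknown, which limits statements on low values. The cause of changed counts was not tested, other than the fewer libraries in fits of 1 prefix or of the groups compared.

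The titles give CD4, CD8 and Treg libraries of a kind of host the same numbers, and whether those came from 1 animal is not stated. Same-numbered libraries did not all deviate together: over 21 pairs of a recipient the r of deviations ran from -0.32 to 0.44 (median 0.13), with 11 over 0.1, and over 51 pairs of a replicate label from -0.34 to 0.37 (median 0.019). At day 0, with 2 libraries a group, deviations are mirror images, so each recipient r there is counted in duplicate. The lowest and highest recipient r are such values. Over the other recipient pairs r ran from -0.114 to 0.428. All 4 pairs of CD4 and CD8 allogeneic libraries were over 0.1 (0.135 to 0.416), as were both pairs of CD8 Treg-treated and Treg day 6 libraries (0.282 and 0.303). Since not all pairs were, the block was not part of the main analysis. With the label prefix as a replicate block the count became 1 for the Treg minus CD4 difference from day 0. With the replicate label as a replicate block it became 0 for CD4 Treg-treated against syngeneic, 1 for CD4 allogeneic against day 0, CD8 allogeneic against day 0, CD8 syngeneic against day 0, CD4 Treg-treated against day 0 and CD8 Treg-treated against day 0 and 2 for the Treg minus CD4 difference from day 0. With the recipient as a replicate block it became 2 for the allogeneic difference and 4 for the Treg minus CD4 difference from day 0.

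The counts of called members that moved by over 1.5 times were as follows, with counts of the main analysis in the report. With libraries centred on their medians, the count became 1 for CD8 against CD4 syngeneic, 2 for the allogeneic difference and 4 for CD4 Treg-treated against syngeneic. Quantile normalisation gave 0 for the allogeneic difference and 1 for CD4 allogeneic against day 0, CD8 syngeneic against day 0 and the Treg minus CD4 difference from day 0. The library mean as a covariate gave 1 for CD4 syngeneic against day 0 and the Treg minus CD4 difference from day 0, 3 for CD4 Treg-treated against syngeneic, 4 for the allogeneic difference, 5 for CD4 allogeneic against day 0, 6 for CD8 syngeneic against day 0, CD8 against CD4 syngeneic and CD4 Treg-treated against day 0, 7 for CD8 allogeneic against syngeneic and 10 for Treg day 6 against day 0. Without the trend and robust options the count was 0 for CD4 Treg-treated against syngeneic and 1 for CD8 against CD4 allogeneic. Array weights, whose estimation stopped before convergence, gave 2 for CD4 syngeneic against day 0 and the Treg difference, 3 for CD4 Treg-treated against syngeneic, 4 for CD8 syngeneic against day 0 and CD8 against CD4 syngeneic, 5 for CD4 allogeneic against day 0 and Treg against CD4 at day 0, 6 for CD8 against CD4 allogeneic and CD4 Treg-treated against day 0, 7 for CD4 Treg-treated against allogeneic and the allogeneic difference, 8 for CD8 Treg-treated against syngeneic and the Treg minus CD4 difference from day 0 and 9 for CD8 allogeneic against syngeneic. Fits of only the groups compared gave 0 for CD4 Treg-treated against syngeneic, CD8 syngeneic against day 0 and the allogeneic difference, 1 for CD4 allogeneic against syngeneic, CD8 against CD4 at day 0 and CD4 Treg-treated against day 0, 2 for CD8 against CD4 Treg-treated and the Treg minus CD4 difference from day 0, 5 for Treg against CD4 at day 0, 6 for CD8 against CD4 allogeneic, 7 for CD8 allogeneic against syngeneic and CD4 allogeneic against day 0 and 10 for Treg day 6 against day 0. JL019 libraries alone gave 0 for CD4 Treg-treated against allogeneic, CD4 Treg-treated against syngeneic, CD8 syngeneic against day 0, Treg against CD4 at day 0, CD8 against CD4 allogeneic, the allogeneic difference, CD4 Treg-treated against day 0 and the Treg minus CD8 difference from day 0, 1 for CD4 allogeneic against syngeneic, CD8 allogeneic against syngeneic, CD4 allogeneic against day 0, Treg day 6 against day 0 and CD8 against CD4 Treg-treated, 2 for CD8 allogeneic against day 0 and 3 for CD8 Treg-treated against syngeneic and CD8 Treg-treated against day 0. JL027 libraries alone gave 0 for CD4 allogeneic against syngeneic, CD8 allogeneic against syngeneic, CD4 Treg-treated against allogeneic, CD4 Treg-treated against syngeneic, CD8 Treg-treated against syngeneic, CD8 syngeneic against day 0, Treg against CD4 at day 0, Treg day 6 against CD4 Treg-treated, CD8 against CD4 allogeneic and the allogeneic difference, 1 for CD4 allogeneic against day 0, CD8 against CD4 Treg-treated, CD8 Treg-treated against day 0 and the Treg minus CD8 difference from day 0 and 2 for CD8 allogeneic against day 0 and Treg day 6 against day 0. Leaving out 1 library in turn gave 0 to 1 for CD8 against CD4 syngeneic, 0 to 2 for CD4 Treg-treated against syngeneic, CD8 syngeneic against day 0 and the allogeneic difference, 0 to 4 for CD4 Treg-treated against allogeneic, 0 to 8 for the Treg minus CD4 difference from day 0, 1 to 3 for CD4 Treg-treated against day 0, CD4 allogeneic against day 0 and CD8 against CD4 allogeneic, 1 to 4 for CD8 allogeneic against day 0, 2 to 5 for CD8 Treg-treated against day 0, 2 to 6 for CD8 allogeneic against syngeneic and 3 to 7 for the Treg minus CD8 difference from day 0. All 10 members stayed called in both comparisons of Treg day 6 with cells of Treg-treated hosts whichever library was left out.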
